A study of Mus musculus with 24 samples.

Results

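Hearts of mice with floxed Fkbp1a alleles and Cre recombinase under the α-myosin heavy chain promoter (FKl/l MHC+) were compared with hearts of floxed mice without Cre (FKl/l). The comparison took every library with either genotype label, 6 and 6, which makes 12 of the 24 libraries of the series. Of each genotype 3 libraries belong to batch 1 and 3 to batch 2, and names give genotype, batch and number. Both groups carry the floxed allele, so the contrast measures the deletion together with the transgene. A further genotype, MHC CRE Only (6 libraries, same driver but no floxed Fkbp1a), was used to set the driver beside it. The study's design text puts the start of αMHC-driven expression at embryonic day 9. Age, sex and whether libraries came from separate animals are not stated in the labels, so p-values measure the spread among these libraries, which may be technical.

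Fkbp1a encodes FKBP12, a small peptidyl-prolyl isomerase that binds FK506 and rapamycin, sits on ryanodine receptors, the calcium release channels of the sarcoplasmic reticulum, and binds type I receptors of the TGF-β family. Its close relative FKBP12.6, from Fkbp1b, binds the cardiac ryanodine receptor. The αMHC promoter (of Myh6) is active in cardiomyocytes, so endothelial cells, fibroblasts and blood cells in a heart sample should keep the gene. Under load or injury, adult cardiomyocytes are known to express fetal and stress genes such as Ankrd1, Nppb, Myh7 and Acta1. The heart oxidizes fatty acids, lactate, ketones and branched-chain amino acids.

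Whole-heart RNA was sequenced to between 32636319 and 39981213 gene counts per library. Levels are CPM, read counts divided by a library size scaled with trimmed means of M values. They compare a gene between libraries and are not divided by length. The log2 ratio used throughout is the fitted log2 fold change of FKl/l MHC+ over FKl/l, and the value after ± is its standard error unless an SD is named. For short, FKl/l MHC+ libraries are also called deletion libraries and FKl/l libraries controls. Summed cardiomyocyte markers were at 55702 to 64489 CPM in FKl/l MHC+ and 55416 to 67009 CPM in FKl/l, and all 12 markers were detected. All 12 libraries had Y-linked transcripts at 69.9 CPM or more in sum and Xist at 2.16 CPM or less. Some control libraries stood apart. FKl/l 1-1 carried airway transcripts (Scgb1a1 at 108 CPM, against at most 18.8 CPM in the other 11), FKl/l 2-2 interferon-induced ones (Iigp1 at 490 CPM, against at most 30.2 CPM), and FKl/l 1-3 atrial ones (Nppa at 5378 CPM, against at most 2614 CPM). Fkbp1a was at 81.8 CPM in the library labelled MHC CRE Only 1-3 and at 122 to 138 CPM in the other 5. That library lay above every FKl/l MHC+ library (75.7 CPM or less) and below every FKl/l library (121 CPM or more). Its Fkbp1a level thus matched neither genotype, and whether its label is right was not tested. Fewer cells of a type and less RNA per cell cannot be told apart in such samples.

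Fkbp1a (GRCm38 chromosome 2, plus strand, 151542483 to 151561692) fell in FKl/l MHC+. It lay between 43.5 and 75.7 CPM (median 56.1) in the 6 deletion libraries. In FKl/l the range was 121 to 147 CPM (median 127). The groups did not overlap, and the mean was 45% of FKl/l (log2 ratio -1.15 ± 0.0973, adjusted p = 2.09e-05). Every adjusted p here comes from the quasi-likelihood F-test of edgeR, with Benjamini-Hochberg adjustment over all genes tested unless another tool is named. The counts cover the whole gene, and which exons Cre removes is not stated in the labels. Fkbp1b was near the limit of detection, at 0.369 ± 0.143 CPM and 0.404 ± 0.144 CPM (SD, n = 6 each). Its log2 ratio was -0.11 ± 0.334 (adjusted p = 0.902). Of the 14 FKBP genes tested, Fkbp1a was the 1 called. Fkbp5, a co-chaperone of steroid receptors, had the highest estimate of the others (log2 ratio 0.64, adjusted p = 0.267).

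Across the transcriptome many genes changed by small amounts. Of 16018 genes tested, 299 (1.87%) were called at an adjusted p under 0.05. Of these, 198 (1.24% of genes tested) were higher in FKl/l MHC+ and 101 (0.631%) lower. These shares are the background for the counts called in each gene list below. The median log2 ratio was 0.41 among the former and -0.45 among the latter, and that of all genes was 0.00. At least a 2-fold change was seen in 33 called genes, 27 higher and 6 lower, and 212 changed by at most 1.5-fold. The 6 libraries of each genotype did not overlap in 113 called genes. Over all genes tested, they did not overlap with FKl/l MHC+ above in 104 (0.649%) and below in 75 (0.468%). Leaving out 1 library gave 148 to 504 calls, and the count moved by over 1.5 times without control 1-2 (168) or 2-1 (190) or deletion library 1-2 (148), 1-3 (153), 2-1 (504) or 2-3 (186). Without FKl/l 1-1 and 2-2 it was 221, of which 167 were among the 299.

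**Figure D1:**
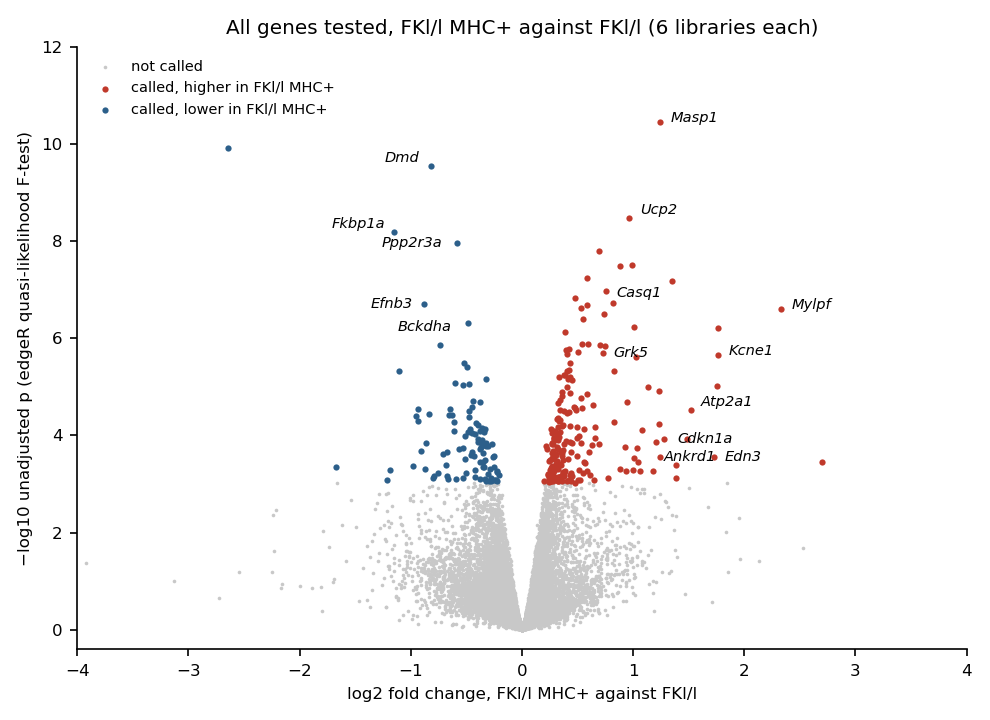
Log2 ratio (horizontal) against −log10 unadjusted p (vertical) for all 16018 genes tested in FKl/l MHC+ against FKl/l, 6 libraries each; 2 uncalled genes lie outside the plotted range of 4 log2 units on either side. Red points are the 198 genes called higher and blue points the 101 called lower; most lie near the centre, and Masp1, Dmd, Ucp2 and Fkbp1a are among those that stand highest.

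Transcripts typical of fast skeletal muscle had the highest median of the 50 lists. Of 20 listed, 11 had counts enough to test, 4 were called higher (against 1.24% of all genes), 1 lower, and their median log2 ratio was 0.76. The 9 not tested, among them Myh1, Myh2, Myh4 and Tnnc2, had too few counts. Mylpf, the regulatory light chain of fast myosin, had libraries between 1.12 and 2.82 CPM (median 1.62) in FKl/l MHC+ and between 0.244 and 0.575 CPM (median 0.333) in FKl/l. Every deletion library exceeded every control library, and the rise was 5.03-fold (log2 ratio 2.33 ± 0.29, adjusted p = 0.000227). Atp2a1, the fast-muscle calcium pump SERCA1, lay at 7.55 to 16.4 CPM (median 12.6) against 3 to 5.69 CPM (median 4.09). It rose 2.86-fold (log2 ratio 1.52 ± 0.226, adjusted p = 0.00617), again without overlap. Casq1, the calcium buffer calsequestrin of the fast-muscle reticulum, lay at 16 to 20.5 CPM (median 17.2) against 9.16 to 11.8 CPM (median 10.8). Its rise of 1.69-fold (log2 ratio 0.76 ± 0.0883, adjusted p = 0.000138) likewise separated the groups. Tnni2, fast troponin I, was at 2.29 to 6.2 CPM against 1.07 to 2.63 CPM, overlapped between groups, and rose (log2 ratio 1.03 ± 0.215, adjusted p = 0.0184), but it was not called without control 1-2 or deletion library 1-2, 1-3 or 2-3 (up to 0.0644). Mybpc2, fast myosin-binding protein C, was not called (log2 ratio 1.10 ± 0.249, adjusted p = 0.063). Ryr1, the skeletal ryanodine receptor, was not called either (log2 ratio 0.99, adjusted p = 0.205).

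The called decrease in this group was Cacna1s, the pore of the skeletal L-type calcium channel, at 8.97 to 10.5 CPM (median 9.51) against 11.9 to 15.5 CPM (median 12.8). The groups did not overlap (log2 ratio -0.47 ± 0.0852, adjusted p = 0.00625), and 20% of its exonic bases are shared with an overlapping gene. The defining fast myosin heavy chains were at or near 0 counts. Over each set of 6 libraries, Myh4 had 0 counts in FKl/l MHC+ and 1 in FKl/l, and Myh1 had 3 and 8. Of the 16 skeletal fibre markers, 9 were tested and 2 called higher, and the 7 others summed to 81 counts in FKl/l MHC+ and 44 in FKl/l. Summed fibre markers, led by Ckm and Acta1 which the heart also expresses, lay at 3612 to 4996 CPM in FKl/l MHC+ and 2429 to 4281 CPM in FKl/l. Their part in these changes was not tested.

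The promoters of Mylpf, Atp2a1 and Casq1 are shown because these 3 genes rose without overlap between groups, and that of Cacna1s because it moved the other way. Each is the 250 bases before the RefSeq transcription start on GRCm38.p6, read 5′ to 3′ on the gene's strand, with capitals marking CAGCTG, an E-box of the kind that muscle basic helix-loop-helix factors bind and which reads the same on both strands. They are at chr7:127211358-127211607 (plus strand) for Mylpf, chr7:126463074-126463323 (minus) for Atp2a1, chr1:172219896-172220145 (minus) for Casq1 and chr1:136052561-136052810 (plus) for Cacna1s.
Mylpf: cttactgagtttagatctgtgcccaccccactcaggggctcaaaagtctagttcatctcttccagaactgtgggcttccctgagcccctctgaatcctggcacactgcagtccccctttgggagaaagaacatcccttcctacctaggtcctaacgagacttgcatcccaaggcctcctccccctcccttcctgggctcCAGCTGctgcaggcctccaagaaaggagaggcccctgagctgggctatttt
Atp2a1: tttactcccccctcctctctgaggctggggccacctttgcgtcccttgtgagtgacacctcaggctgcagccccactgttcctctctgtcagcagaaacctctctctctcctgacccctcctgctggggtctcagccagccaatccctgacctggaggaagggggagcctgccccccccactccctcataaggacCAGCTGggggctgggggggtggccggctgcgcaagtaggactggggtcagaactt
Casq1: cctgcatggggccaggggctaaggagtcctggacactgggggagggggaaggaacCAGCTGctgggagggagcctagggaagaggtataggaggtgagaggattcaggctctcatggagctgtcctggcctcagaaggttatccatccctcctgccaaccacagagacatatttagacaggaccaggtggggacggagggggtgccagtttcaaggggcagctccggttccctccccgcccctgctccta
Cacna1s: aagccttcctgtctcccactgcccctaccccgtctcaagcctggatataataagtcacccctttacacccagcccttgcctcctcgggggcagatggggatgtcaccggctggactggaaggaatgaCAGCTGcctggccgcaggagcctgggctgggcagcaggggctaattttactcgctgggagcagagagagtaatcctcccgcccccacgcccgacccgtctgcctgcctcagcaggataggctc
The capitals begin 51, 55, 195 and 123 bases before the start. CAGCTG occurred in 46 of 210 promoters of genes called higher (21.9%), in 19 of 100 promoters of genes called lower (19%), in 1838 of 14664 promoters of genes tested and in 13.0% of all 32851 promoters of the table, where a gene can have several. The letters alone do not show a site in use.

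**Figure D2:**
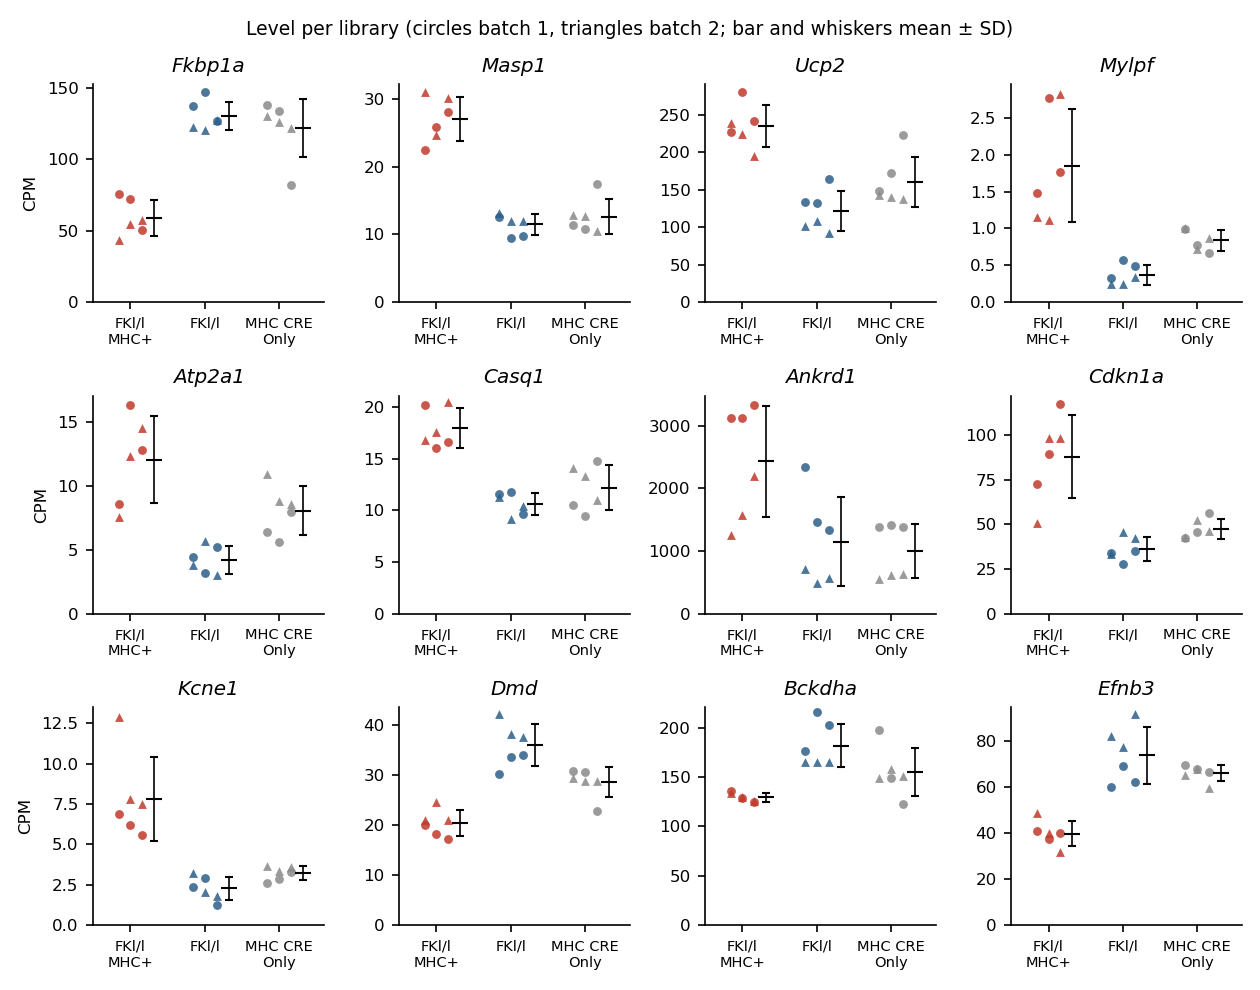
CPM of 12 genes in each library of FKl/l MHC+ (red), FKl/l (blue) and MHC CRE Only (grey), batch 1 as circles and batch 2 as triangles, with the mean and SD of the 6 libraries beside the points; vertical axes start at 0. Fkbp1a, Dmd, Bckdha and Efnb3 lie lower in FKl/l MHC+ than in FKl/l and the other 8 higher; Ankrd1 is the 1 gene here whose FKl/l MHC+ and FKl/l libraries overlap.

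Stress genes of the cardiomyocyte rose in part. Of 23 tested, 5 were called higher (against 1.24% of all genes) and 0 lower, 20 had a positive log2 ratio, and their median was 0.35. Ankrd1, a stretch-responsive protein of the sarcomere and nucleus, ranged from 1257 to 3331 CPM (median 2657) in FKl/l MHC+ and from 493 to 2345 CPM (median 1022) in FKl/l. Batch 1 libraries were higher than batch 2 libraries in both genotypes, so the groups overlapped over all libraries but not within either batch. The fit with its batch term gave a rise of 2.3-fold (log2 ratio 1.2 ± 0.201, adjusted p = 0.0158). The log2 ratio came to 0.90 in batch 1 and 1.5 in batch 2. The other called members changed less. Uchl1, a neuronal and muscle deubiquitinase, rose 1.51-fold with no overlap (adjusted p = 0.0008). Flnc, the muscle filamin, rose 1.33-fold with no overlap (adjusted p = 0.00693). Des, the intermediate filament desmin, was at 2586 to 3513 CPM against 1891 to 2663 CPM (adjusted p = 0.039), and Xirp1, an actin-binding protein of the intercalated disc, at 192 to 331 CPM against 151 to 287 CPM (adjusted p = 0.0441). The calls of Des and Xirp1 were lost in 7 and 10 of the 12 fits with 1 library removed and in the fit without FKl/l 1-1 and 2-2, and the whole list had 3 to 8 calls in the 12 fits.

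The best known markers of the program were not called. Nppa, atrial natriuretic peptide, was at 1605 to 2559 CPM against 1046 to 5378 CPM, where the highest value is FKl/l 1-3 (log2 ratio 0.05, adjusted p = 0.954). Nppb, B-type natriuretic peptide, was at 276 to 527 CPM against 148 to 444 CPM (log2 ratio 0.77, adjusted p = 0.268). Acta1, skeletal α-actin, was at 369 to 1619 CPM against 59.4 to 1156 CPM (log2 ratio 1.21 ± 0.669, adjusted p = 0.412). Libraries of each group spread widely in these genes, and Acta1 reached 1156 CPM in FKl/l 1-1 alone among the controls, where the next highest was 325 CPM. Myh7, the slow myosin heavy chain, had a log2 ratio of 0.62 (adjusted p = 0.423).

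The promoter of Ankrd1, at chr19:36119845-36120094 on the minus strand, is shown because Ankrd1 had the largest called change of the stress genes. It has 2 copies of the M-CAT element, the binding sequence of TEAD factors, searched as CATTCC on both strands. Capitals mark GGAATG, which is CATTCC on the opposite strand, 210 and 123 bases before the start.
Ankrd1: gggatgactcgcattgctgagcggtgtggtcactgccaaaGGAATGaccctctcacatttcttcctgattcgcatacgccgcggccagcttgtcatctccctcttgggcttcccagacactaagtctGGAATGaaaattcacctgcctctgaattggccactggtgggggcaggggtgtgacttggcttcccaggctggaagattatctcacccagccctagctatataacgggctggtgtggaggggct
CATTCC on either strand was found in 11.9% of promoters of genes called higher, 16% of those called lower and 11.1% of promoters of genes tested.

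Among 25 targets of p53 tested, 3 were called higher (against 1.24% of all genes) and 0 lower, and the median log2 ratio was 0.09. Cdkn1a, which encodes the cell cycle inhibitor p21, lay at 50.8 to 118 CPM (median 94) against 27.6 to 45.6 CPM (median 34.3). No library overlapped, and it rose 2.43-fold (log2 ratio 1.28 ± 0.206, adjusted p = 0.0145), although this call was lost when FKl/l 1-1 and 2-2 were left out. Perp, a membrane protein of desmosomes, rose (log2 ratio 0.53 ± 0.0657, adjusted p = 0.000219), and so did Aen, a nuclease (log2 ratio 0.34 ± 0.0584, adjusted p = 0.00476). Other common targets were not called, among them Mdm2 (log2 ratio 0.05, adjusted p = 0.774) and Ccng1 (0.23, adjusted p = 0.12). In the integrated stress response, 2 of 26 genes were called higher (against 1.24% of all genes) and 0 lower. Chac1, an enzyme that degrades glutathione, was at 2.54 to 6.26 CPM against 1.28 to 3.36 CPM and rose (log2 ratio 0.95 ± 0.165, adjusted p = 0.00501), with overlap between the groups. Slc3a2, the heavy chain of several amino acid transporters, rose by 0.27 on the log2 scale (adjusted p = 0.0446), a call lost in 8 of 12 fits without 1 library. Gdf15, a cytokine released under stress, was at 1.5 to 13.9 CPM against 0.6 to 2.56 CPM and not called (log2 ratio 1.95, adjusted p = 0.109), and Atf4 itself had a log2 ratio of -0.24 (adjusted p = 0.47).

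Genes of electrical excitation changed singly. Kcne1, the auxiliary subunit that slows the cardiac potassium channel KCNQ1, was at 5.61 to 12.9 CPM (median 7.21) against 1.27 to 3.24 CPM (median 2.21). It rose 3.4-fold without overlap (log2 ratio 1.77 ± 0.223, adjusted p = 0.00102). Its partner Kcnq1 was not called (log2 ratio 0.16, adjusted p = 0.337). Of 22 potassium channel genes, Kcne1 was called higher and Kcnd2, a channel of the transient outward current, lower (log2 ratio -0.51 ± 0.114, adjusted p = 0.0255), the latter not called without control 1-2 or 2-1 or deletion library 1-2 or 2-3 (up to 0.0838). Outside that list, and named after its values were seen, Kcnj14, an inward rectifier potassium channel, was at 1.45 to 3.32 CPM (median 2.28) against 0.209 to 1.00 CPM (median 0.683). It rose with no overlap (log2 ratio 1.76 ± 0.285, adjusted p = 0.0029) and stayed called in each of the 12 fits without 1 library. Cntn2, an adhesion protein of the conduction system, rose with no overlap, from a median of 14.9 to 24.8 CPM (log2 ratio 0.69 ± 0.0711, adjusted p = 3.65e-05). With Kcne1 it made 2 of 11 conduction system markers tested, against 1.24% of all genes called higher. The other 9, including Hcn4 (log2 ratio -0.29, adjusted p = 0.138), were not called. Pkp2, a desmosomal plaque protein, rose by 0.35 on the log2 scale (adjusted p = 0.0316, lost in 7 of 12 fits), and Ctnna3, αT-catenin of the intercalated disc, fell (log2 ratio -0.49 ± 0.0957, adjusted p = 0.012).

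The calcium release machinery on which FKBP12 sits showed no called gene among 25, against a background of 1.87%. Ryr2, the cardiac ryanodine receptor, had a log2 ratio of -0.08 (adjusted p = 0.587). For Atp2a2, the cardiac calcium pump, it was -0.03 ± 0.0743 (adjusted p = 0.859), and for its inhibitor Pln -0.07 ± 0.0701 (adjusted p = 0.651). The median of the list was -0.05. At an unadjusted p under 0.05, 2610 of all genes passed. In the sarcomere, 1 of 25 genes was called, the cardiac myosin-binding protein C gene Mybpc3 (log2 ratio 0.28, adjusted p = 0.0419, lost in 8 of 12 fits). None of 31 listed ligands, receptors, SMADs and feedback genes of TGF-β, activin and BMP signalling was called, beside 1.87% of all genes. Nor was any of 21 mTOR genes, whose complexes rapamycin inhibits through FKBP12. At that share, 0 calls in lists of this size do not set them apart from other genes. Outside the TGF-β list, Fstl3, a secreted antagonist of activin and myostatin, was at 5.60 to 10.3 CPM against 3.82 to 5.30 CPM and rose with no overlap (log2 ratio 0.83 ± 0.128, adjusted p = 0.00176).

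Dmd encodes dystrophin, which links the cytoskeleton to the matrix. It lay between 17.2 and 24.7 CPM (median 20.5) in FKl/l MHC+ and between 30.1 and 42.2 CPM (median 35.8) in FKl/l. It fell to 56.6% of the control level without overlap (log2 ratio -0.82 ± 0.0652, adjusted p = 1.53e-06), and by the same amount, -0.82, in each batch. The other 19 tested genes of its glycoprotein and laminin complex were not called. Dmd spans 2257 kb on the X chromosome. Genes over 500 kb made 6 of the 101 lower genes, 2 of the 198 higher genes and 141 of the 15964 genes with a position. The 6 were Dmd, the splicing regulator Rbfox1 (log2 ratio -0.52), Ctnna3 (-0.49), the mitochondrial peptidase Immp2l (-0.62, not called without controls 1-1 and 2-2), the pyrimidine-degrading enzyme Dpyd (-0.65) and Kcnd2 (-0.51). Over all 103 genes of this length at the level needed for the comparison by length, the median log2 ratio was -0.02, and 6 were called lower and 2 higher. Across 12842 genes, the rank correlation of gene span with log2 ratio was -0.0019, a description over genes of the same libraries. Of the genes tested on each autosome, between 0.940% (chromosome 4) and 2.75% (chromosome 9) were called, with 1.43% on the X chromosome and 0 of 8 on the Y chromosome.

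**Figure D3:**
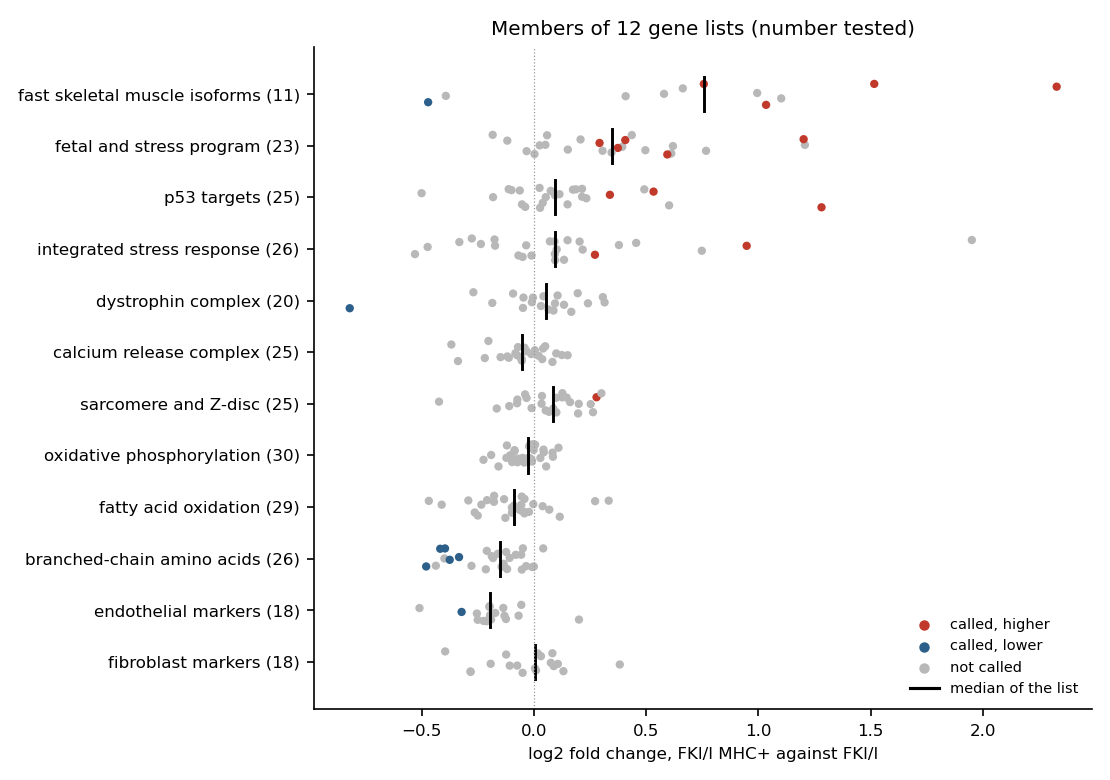
Log2 ratio in FKl/l MHC+ against FKl/l of every tested member of 12 gene lists, with red for genes called higher, blue for genes called lower, grey for genes not called and a black bar at the median. Fast skeletal muscle isoforms and stress genes extend to the right with medians of 0.76 and 0.35, branched-chain amino acid genes lie to the left with a median of -0.15, and oxidative phosphorylation genes stay close to 0.

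The breakdown of branched-chain amino acids was the metabolic route with most called genes. Of 26 tested, 5 fell (against 0.631% of all genes) and 0 rose, 25 had a negative log2 ratio, and the median was -0.15. The called genes include enzymes of the first steps and 1 further down. Bcat2, the mitochondrial aminotransferase, fell (log2 ratio -0.33 ± 0.0652, adjusted p = 0.0111). Bckdha, the E1α subunit of the branched-chain ketoacid dehydrogenase, lay at 124 to 136 CPM (median 130) against 165 to 216 CPM (median 171), so the groups did not overlap (log2 ratio -0.48 ± 0.0626, adjusted p = 0.000371). The E1β subunit Bckdhb (log2 ratio -0.40, adjusted p = 0.0103) and the activating phosphatase Ppm1k (-0.42, adjusted p = 0.0441) fell as well. In leucine breakdown, Mccc2, a subunit of methylcrotonyl-CoA carboxylase, was at 19 to 27 CPM against 28.1 to 30.6 CPM and fell with no overlap (log2 ratio -0.38 ± 0.0654, adjusted p = 0.00494). The E2 subunit Dbt (-0.40, adjusted p = 0.0772) and Ivd, the next enzyme for leucine (-0.44, adjusted p = 0.0772), were not called, and the kinase that inhibits the complex, Bckdk, was at -0.00. The list had 4 to 10 calls in the 12 fits without 1 library, and the Ppm1k call was lost in 9. Of the exonic bases of Bckdha, 61.7% overlap B3gnt8 on the other strand, and the strand setting of the counting is not given. Such overlap covers 64.7% of the exonic bases of Pln, 61.5% of Nppa and 47.3% of Fstl3. It covers 21.9% of Atp2a1, 18.1% of Uchl1, 15.9% of Bcat2, 14.2% of Angpt1 and 12.2% of Lnx1. Amy1 shares 32.7% with Rnpc3 on the same strand, and its reads may also come from near-identical amylase genes.

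The lists of other fuel pathways had 0 to 3 called genes each, beside 1.87% of all genes tested. Fatty acid uptake and oxidation had 0 of 29 genes called (median -0.09), and nuclear-encoded oxidative phosphorylation 0 of 30 (median -0.03). The log2 ratio was negative in 24 of the 29 and in 22 of the 30. It was negative in 18 of 25 genes of the tricarboxylic acid cycle and 15 of 20 of ketone use and NAD synthesis. For glucose use it was negative in 8 of 27. A lean to negative values was thus not particular to branched-chain amino acid genes. In the tricarboxylic acid cycle 1 of 25 was called lower, the NADP-dependent Idh2 (log2 ratio -0.26, adjusted p = 0.0239, lost in 7 of 12 fits). Of 27 genes of glucose use, Hk1 and Pfkp, a hexokinase and a phosphofructokinase isoform, rose (log2 ratio 0.43 for each, adjusted p = 0.00138 and 0.00361). Pfkfb1, a regulator of glycolysis best known from liver, fell (log2 ratio -1.19, adjusted p = 0.0367, lost in 9 of 12 fits). Ucp2, an uncoupling protein of the inner mitochondrial membrane, was at 195 to 281 CPM (median 233) against 91.9 to 164 CPM (median 120). It rose 1.95-fold without overlap (log2 ratio 0.97 ± 0.0854, adjusted p = 1.34e-05). Nmnat3, which makes NAD in mitochondria, fell (log2 ratio -0.47, adjusted p = 0.0111) and was the 1 called of 20 genes of ketone use and NAD synthesis.

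Secreted and signalling genes included the smallest p of the comparison. Masp1, a gene of the lectin route of complement, was at 22.4 to 31.1 CPM (median 26.9) against 9.4 to 13.2 CPM (median 12). These counts are by gene and do not tell its transcripts apart. It rose 2.36-fold without overlap (log2 ratio 1.24 ± 0.0863, adjusted p = 5.5e-07), by 1.27 in batch 1 and 1.21 in batch 2. Of 19 complement and acute phase genes it was called with Hamp, the iron hormone hepcidin (log2 ratio 0.74, adjusted p = 0.000272), and Lcn2, an iron-binding lipocalin (1.49, adjusted p = 0.0147). Among angiogenic and vasoactive ligands and receptors, 1 of 24 rose and 2 fell. Edn3, endothelin 3, was at 2.89 to 7.16 CPM against 0.808 to 3.09 CPM (log2 ratio 1.73 ± 0.337, adjusted p = 0.0238), and the call was lost in 6 of 12 fits. Efnb3, an ephrin ligand, was at 31.8 to 48.6 CPM against 59.9 to 91.7 CPM and fell without overlap (log2 ratio -0.88 ± 0.0973, adjusted p = 0.000202). Angpt1, the ligand of the endothelial receptor Tek, fell (log2 ratio -0.42, adjusted p = 0.0125), a call lost without FKl/l 1-1 and 2-2. Il15, a cytokine of lymphocyte survival, fell without overlap (log2 ratio -0.73 ± 0.103, adjusted p = 0.0008). The MHC CRE Only libraries, at 6.47 to 8.26 CPM of Il15, also lay below every FKl/l library (8.54 CPM or more).

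In the matrix list 2 of 41 genes rose, against 1.24% of all genes called higher. Thbs4, a thrombospondin induced in loaded muscle, was at 9.64 to 12.6 CPM against 4.55 to 10.3 CPM (log2 ratio 0.83 ± 0.149, adjusted p = 0.00924), where 10.3 is FKl/l 1-1 and the next control was 6.53. Timp1, an inhibitor of metalloproteases, rose (log2 ratio 1.24 ± 0.261, adjusted p = 0.0238), a call lost in 5 of 12 fits and without FKl/l 1-1 and 2-2. Collagens were not called, for example Col1a1 (log2 ratio 0.11, adjusted p = 0.338) and Col3a1 (0.08, adjusted p = 0.589). No fibroblast marker of 18 was called (median 0.01).

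Further called genes act in receptor signalling and trafficking. Fzd2, a Wnt receptor, was at 18.2 to 25.6 CPM against 7.5 to 13.7 CPM and rose without overlap (log2 ratio 0.99 ± 0.105, adjusted p = 5.73e-05). Grk5, a kinase that desensitizes G protein-coupled receptors, rose from a median of 38.9 to 64.7 CPM without overlap (log2 ratio 0.73 ± 0.0974, adjusted p = 0.000965). Ppp2r3a, a regulatory subunit of protein phosphatase 2A, was at 158 to 176 CPM against 215 to 276 CPM and fell without overlap (log2 ratio -0.59 ± 0.059, adjusted p = 2.92e-05). With Adcy5, a cardiac adenylyl cyclase that rose by 0.28 on the log2 scale (adjusted p = 0.0162, lost without deletion library 1-2 or 1-3, and without controls 1-1 and 2-2), Grk5 and Ppp2r3a were the called genes of 25 in the adrenergic list. Epn3, an epsin of endocytosis, was at 50.3 to 72.5 CPM against 14 to 38.8 CPM without overlap and rose (log2 ratio 1.23 ± 0.161, adjusted p = 0.00346). The MHC CRE Only libraries, at 29.6 to 69.7 CPM of Epn3, also lay above every FKl/l library of the same batch. Also higher in FKl/l MHC+ than in FKl/l were the ubiquitin ligase Lnx1 (log2 ratio 0.89, adjusted p = 5.73e-05) and the cadherin Cdh22 (1.13, adjusted p = 0.0029). The DNA repair enzyme Ung (-0.60, adjusted p = 0.0026) and the lipid enzyme Cds2 (-0.32, adjusted p = 0.00223) were lower.

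Among 18 endothelial markers, 17 had a negative log2 ratio (median -0.20) and 1 was called, the vascular receptor Robo4 (log2 ratio -0.32 ± 0.0669, adjusted p = 0.0158), a call lost without control 1-2 or deletion library 1-2 or 1-3. Summed endothelial markers lay at 1344 to 1651 CPM in FKl/l MHC+ and 1370 to 1942 CPM in FKl/l, and Angpt1, Efnb3 and Robo4 were lower beside them. Their part in those results was not tested. Adipocyte markers had a median of -0.67 over 14 genes and interferon genes one of -0.31 over 30, with 0 called in either. Without FKl/l 1-1 and 2-2 these medians were 0.08 and 0.03. Macrophage (21), lymphocyte (15), erythroid (8), airway (9), atrial (10), Schwann cell (12) and mesothelial (9) markers had 0 called, and Des was the called member of 14 mural cell markers. Heat shock (20 genes), unfolded protein response (23), metallothionein and zinc transport (11), Notch (17), cell cycle (25), immediate early (23), mitochondrially encoded (13), ribosomal (31) and cardiac transcription factor genes (26) had 0 called. In the clock list 1 of 19 fell, Hlf (adjusted p = 0.023, lost in 5 of 12 fits), in the NRF2 list 1 of 23 rose, Srxn1 (adjusted p = 0.0155, lost without deletion library 1-2 or 1-3), and among 21 muscle ubiquitin and autophagy genes Uchl1 was the 1 called.

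Since FKl/l lacks Cre, the same FKl/l MHC+ libraries were also set against MHC CRE Only, and the driver against FKl/l. These 3 comparisons share libraries, so calls in them are not independent. Against MHC CRE Only, 210 genes were called (1.31%), 110 higher and 100 lower. Summed Y-linked transcripts lay at 53.1 to 69.3 CPM in MHC CRE Only, below every FKl/l MHC+ library (69.9 to 96.3 CPM), and with them as a covariate 10 genes were called, 9 of them among the 210. Their part in the result was not tested further. DESeq2 called 705. Leaving out 1 library gave 68 to 427, and the count was 68, 72, 427 and 98 without deletion library 1-2, 1-3, 2-1 and 2-3, 115 without MHC CRE Only 1-1, 110 without 1-2, 349 without the library labelled 1-3, 75 without 2-1 and 88 without 2-2. For the driver against FKl/l it was 4 genes (0.025%), or 1885 at an unadjusted p under 0.05 and 211 by DESeq2. This count also depended on the batch and on single libraries. It was 1 in batch 1 alone, 840 in batch 2 alone (255 higher and 585 lower) and 35 without FKl/l 1-3. The 4 genes include Slc52a3 and Pygb, which were higher, and Rem1, which was lower.

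The genes below were grouped after their values were seen. Some had close to the same estimate against either control and little in the driver, at most 0.18 in size. Fkbp1a was at -1.06 ± 0.155 (adjusted p = 0.00946) against MHC CRE Only and -0.09 ± 0.106 (adjusted p = 0.772) in the driver. Ankrd1 was at 1.34 ± 0.106 (adjusted p = 7.92e-06) and -0.14 ± 0.132 (adjusted p = 0.727), and its log2 ratio against MHC CRE Only had the smaller error. Masp1 had 1.10 (adjusted p = 0.000243) and 0.14, Fzd2 0.81 (adjusted p = 0.00167) and 0.18, Efnb3 -0.73 (adjusted p = 0.000208) and -0.15, and Edn3 1.84 (adjusted p = 0.00962) and -0.13. These genes were called against both controls. With the Y-linked covariate in the fit against MHC CRE Only, Ankrd1 (1.18, adjusted p = 0.00511), Masp1 (1.14, adjusted p = 0.0467), Fzd2 (1.04, adjusted p = 0.0126) and Efnb3 (-0.69, adjusted p = 0.0467) were called, and Fkbp1a (-0.96 ± 0.243, adjusted p = 0.26) and Edn3 (1.65 ± 0.458, adjusted p = 0.272) were not. Y-linked levels separate these genotypes, so the covariate overlaps with genotype, and the SE of Fkbp1a grew from 0.155 to 0.243. A call lost in this fit therefore does not show that a difference is absent, for these genes or those below.

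Others had an estimate of the same sign in the driver that was 0.20 or more in size, so the sets grade into each other. Mylpf was at 1.13 ± 0.253 (adjusted p = 0.0344) against MHC CRE Only and at 1.2 ± 0.268 (adjusted p = 0.12) in the driver against FKl/l. MHC CRE Only libraries had 0.671 to 1.01 CPM of Mylpf, all above those of FKl/l and below those of FKl/l MHC+. For Atp2a1 the values were 0.59 (adjusted p = 0.182) and 0.92 (adjusted p = 0.0943), and for Dmd -0.49 (adjusted p = 0.00868) and -0.33 (adjusted p = 0.166). Ucp2 was at 0.56 (adjusted p = 0.00586) and 0.41 (adjusted p = 0.13), and Kcne1 at 1.26 (adjusted p = 0.000168) and 0.51 (adjusted p = 0.309). Casq1 was at 0.56 (adjusted p = 0.0163) and 0.20 (adjusted p = 0.499). Of these, Kcne1 was called against MHC CRE Only with the Y-linked covariate (1.34, adjusted p = 0.0126), and Mylpf (1.25), Dmd (-0.62), Ucp2 (0.49) and Casq1 (0.73) were not (adjusted p = 0.0878 to 0.301).

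In a last set the estimate of the driver against FKl/l was as large as that against MHC CRE Only, or nearly so. The same held for Mylpf and Atp2a1 above. It also held for the median of the 11 fast skeletal muscle genes tested (0.35 in the driver and 0.35 against MHC CRE Only). Hk1 was at 0.05 (adjusted p = 0.818) against MHC CRE Only and 0.38 (adjusted p = 0.197) in the driver, Ndnf, a secreted neurotrophic factor, at 0.17 (adjusted p = 0.511) and 0.65 (adjusted p = 0.0943), and Rbfox1 at -0.06 (adjusted p = 0.815) and -0.46 (adjusted p = 0.105). Bckdha had -0.25 (adjusted p = 0.144) and -0.23 (adjusted p = 0.371), and Mccc2 -0.13 (adjusted p = 0.419) and -0.25 (adjusted p = 0.166). The library labelled MHC CRE Only 1-3 enters these values, and it had the highest level of Hk1 (357 CPM), Ndnf (20 CPM) and Ucp2 (223 CPM) and the lowest of Bckdha (123 CPM) of its genotype. Without it and MHC CRE Only 2-3, which carried airway transcripts, 275 genes were called against MHC CRE Only, 154 of them among the 210. Without the same libraries and FKl/l 1-1 and 2-2, the driver had 2 calls against FKl/l.

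**Figure D4:**
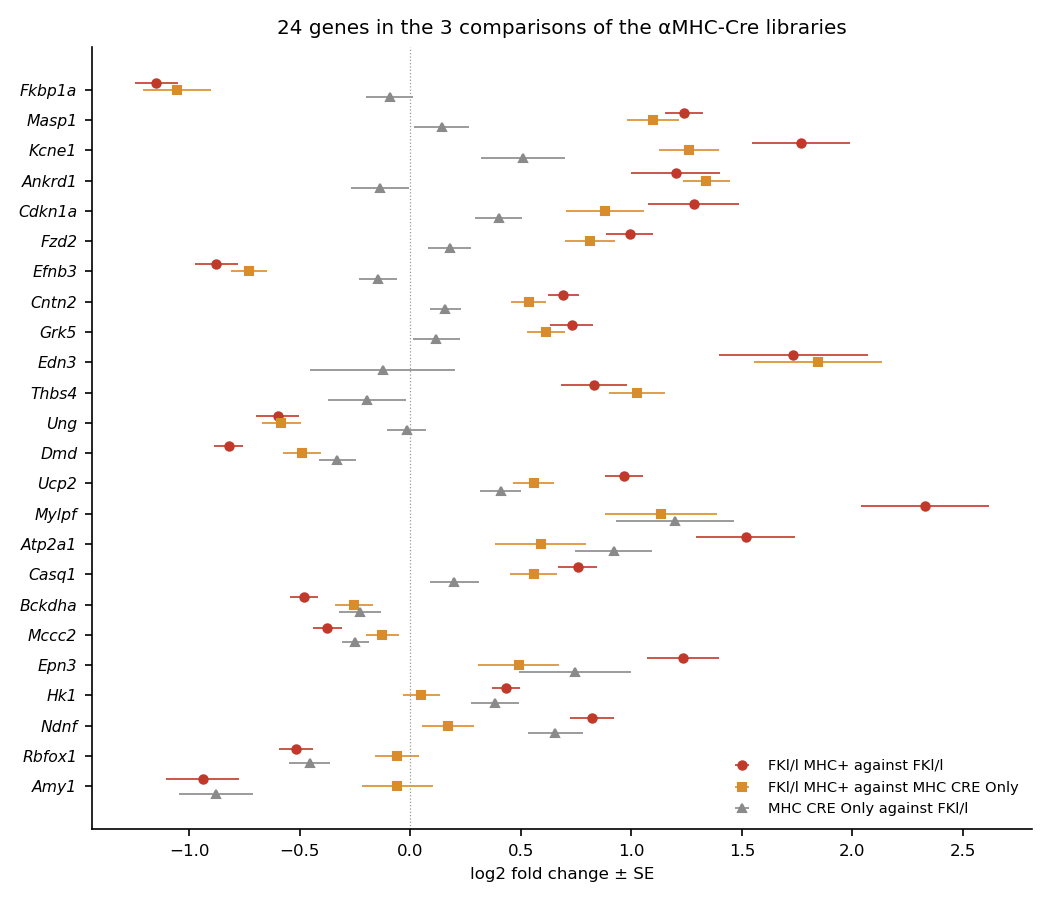
Log2 ratio and SE (horizontal) of 24 genes in FKl/l MHC+ against FKl/l (red circles), FKl/l MHC+ against MHC CRE Only (orange squares) and MHC CRE Only against FKl/l (grey triangles), each fitted on 12 libraries. For Fkbp1a, Ankrd1 and Edn3 the red and orange symbols lie together and the grey one near 0; for Hk1, Ndnf, Rbfox1 and Amy1 the red and grey symbols lie together and the orange one near 0.

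No called gene had opposite signs in the 2 batches, which is largely built in because both entered the test. Batch 1 alone gave 427 calls, of which 140 were among the 299, and batch 2 alone 58. A test of the genotype difference between batches called 3 genes at adjusted p = 0.048 each, or 2323 at an unadjusted p under 0.05 and 314 by DESeq2. They were Ypel2, Fmo2 and Lrtm1. In the authors' deposited table for this comparison, 23 genes had an adjusted p under 0.05, 19 higher and 4 lower, and 22 of them were called here. The exception was Mybpc2 (adjusted p = 0.0238 in the authors' deposited table). That table gives a test statistic of 0 to 12517 of 16363 genes, and each of those has a log2 fold change of at most 0.263 in size in the authors' deposited table. That bound is a fold of 1.2, so the authors' test appears to be against that fold. The 299 calls here were tested against no change, an unlike threshold. Tested against a fold of 1.2, 35 genes were called here. Among genes called here, Casq1 has an adjusted p of 0.195 in the authors' deposited table.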

How the data were processed

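Whole mouse hearts were homogenized in TRIzol and total RNA was sequenced after directional library preparation, per the labels' protocols. Read counts were deposited as whole numbers by Ensembl gene, without normalization. Per the submitters' processing notes, bcl2fastq 2.17, FastQC, Trim Galore, STAR and RSEM were used with build mm10. Not given in the sources used here are their roles, the annotation, the strand setting and any rounding of RSEM estimates, so genes with near-identical copies (Amy1) or overlapping neighbours are less certain. The authors' tables of comparisons, per the file headers, give for each gene its log2 fold change, log2 expression level, a statistic or score, and the p-value before and after adjustment.

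Of 56384 rows, 3660 named by a transcript only (1.31 to 3.24% of counts in the 12 libraries compared) were left out. Genes were kept by filterByExpr and scaled by TMM over all 24 libraries. The quasi-likelihood F-test of edgeR 4.0.16 was used (robust, 2-sided; R 4.3.3, with limma 3.58.1) on the 12 libraries compared, with batch and genotype as terms. A gene was called at a Benjamini-Hochberg adjusted p under 0.05 over the 16018 genes tested. The SE is the absolute log2 fold change over the root of F. The script was tested on simulated data. DESeq2 1.42.0 and limma voom were alternatives. No 2 libraries of a genotype agreed within counting noise (chi-square per degree of freedom 8.13 to 143). Same-numbered libraries did not deviate together, so they were not paired. Positions are from GENCODE M21 on GRCm38 and promoters from RefSeq (GRCm38.p6), which held 56 of the 79 called genes that the naming rule took.

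The genes named are Fkbp1a and Fkbp1b, the called genes with the smallest p (15 in each direction) or the most extreme log2 fold change at a mean of at least 5 CPM (15 in each direction), and in each gene list the called members and the 3 most abundant others; predicted and sex-linked genes were left out. Fkbp5, Ryr1, Ryr2, Kcnq1, Mdm2, Atf4, Gdf15, Nppb, Myh7, Col1a1, Bckdk, Dbt, Ivd, Rem1, Slc52a3, Pygb, Scgb1a1, Iigp1, Myh1, Myh2, Myh4 and Tnnc2 were named after their values were seen. Some genes are not reported here. The members and lists were chosen with earlier results of these data known. Lists are described by counts and medians, with no test of a list.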

Additional observations from a re-analysis of the deposited data

Results flagged for a closer look

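In groups of 6 libraries, a value was singled out where its gap to the nearest other exceeded Dixon's critical ratio for 6 values. Chance gives about 1 in 20 groups. Of 156 groups of named genes 7 met it, and of 98 groups of summed lists 8.

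In FKl/l MHC+, Fzd2 reached 25.6 CPM in 2-3 (the others 18.2 to 20.5), Kcne1 12.9 CPM in 2-1 (5.61 to 7.82) and Pfkfb1 3.28 CPM in 2-1 (1.19 to 1.96), and Ccn3, a matricellular protein, fell to 1.63 CPM in 1-2 (3.28 to 4.16). Fzd2 and Kcne1 stayed called in each of the 12 fits that left out 1 library. In FKl/l, Thbs4 reached 10.3 CPM and Edn3 3.09 CPM in 1-1, where the others lay at 4.55 to 6.53 and 0.808 to 1.56, and Hlf 16.1 CPM in 2-1 (12.6 to 13.5).

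Summed over lists, FKl/l 1-3 had 10624.5 CPM of atrial markers (the others 3286 to 5893), 957 CPM of TGF-β family genes (629 to 742) and 1506 CPM of ketone and NAD genes (1747 to 1865). FKl/l 1-1 had 429 CPM of airway markers (1.17 to 9.75) and 38.9 CPM of mesothelial markers (15.3 to 21.7). FKl/l 2-2 had 1886 CPM of interferon genes (307 to 390), FKl/l 1-2 27845 CPM of oxidative phosphorylation genes (24844 to 25883), and FKl/l MHC+ 1-2 50.1 CPM of lymphocyte markers (13.6 to 24.3).

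For 3 genes the genotype difference itself differed between batches, each with 3 libraries per genotype and batch (adjusted p = 0.048 each by edgeR's quasi-likelihood test). The log2 fold change in batch 2 less that in batch 1 was 1.4 for Ypel2, a gene of the yippee family. Its means were 6.53 CPM against 15 CPM in batch 1 and 12.2 CPM against 10.6 CPM in batch 2 (FKl/l MHC+ against FKl/l). For Fmo2, a flavin-containing monooxygenase, the difference was 0.93, with 12.3 CPM against 24 CPM in batch 1 and 14.6 CPM against 14.9 CPM in batch 2. For Lrtm1, a membrane protein with leucine-rich repeats, it was -0.87, with 740 CPM against 590 CPM in batch 1 and 556 CPM against 811 CPM in batch 2.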

How the results depend on the processing

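The log2 fold change of Fkbp1a kept its call in every alternative fit. Of 78 called genes named by the rule, 0 changed sign, 59 stayed called in each of the 12 fits that left out 1 library, 4 were lost in 1 to 3 and 15 in 4 or more; DESeq2 kept 78, limma voom 72, 1 fit of all 24 libraries 67, the replicate block 60, no batch term 35 and a test against a fold of 1.2 kept 27. The 299 calls became 720 by DESeq2, 57 with no batch term, 148 with the replicate block, 35 against a fold of 1.2, 58 in batch 2 alone and 148 to 504 without 1 library. The 210 calls against MHC CRE Only became 705 by DESeq2, 447 with no filter on low counts, 24 with no batch term, 96 with the replicate block, 17 against a fold of 1.2, 10 with a Y-linked covariate and 68 to 427 without 1 library. The 4 calls of the driver became 211 by DESeq2, 2 by limma voom, 19 with no filter, 7 in 1 fit of all libraries, 1 with no batch term, 1 with the replicate block, 1 against a fold of 1.2, 2 with mitochondrial genes left out, 0 with a Y-linked covariate, 2 without robust fitting, 1 in batch 1 alone, 840 in batch 2 alone, 2 with 4 libraries left out and 2 to 35 without 1 library. The 3 calls of the batch interaction became 0 with RLE scaling, 314 by DESeq2, 230 with no filter, 0 with the filter and TMM over the 12 libraries and 0 to 252 without 1 library. The cause of these differences was not tested. Leaving out FKl/l 1-1 and 2-2, and the 4 libraries above, was chosen after seeing the data. Same-numbered libraries of FKl/l MHC+ and FKl/l deviated from their group means with correlations of -0.238 to 0.0775, so the block rests on a number alone. No scaling moved the median of all genes by more than 0.1. Depth limits Fkbp1b, Mylpf and the fast myosin heavy chains, which had few counts; intervals between genotypes cover the spread of libraries, not of stated animals.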
